A study of Homo sapiens with 12 samples.

Results

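The HES, HEY and ID genes examined here were the 10 rows HES1, HES4, HES6, HEY1, HEY2, HEYL, ID1, ID2, ID3 and ID4, chosen by gene symbol among the 28008 genes of each count table. All 10 passed the filter on low counts in both cell lines. The libraries come from a pair of established human pancreatic neuroendocrine tumor (pNET) lines, QGP-1 and BON-1, transduced with tet-MUC1shRNA, whose hairpin against MUC1 is switched on by doxycycline (DOX). The 4 groups, each of 3 libraries, were QGP-1/tet-MUC1shRNA cells and their BON-1/tet-MUC1shRNA counterparts given 0.1% DMSO as vehicle (DOX-) or 500 ng/mL DOX (DOX+) for 7 days. Every library therefore carries the hairpin vector, selected as a puromycin-resistant population, and DOX-treated cells with a control hairpin were not analysed here, so that an action of DOX itself cannot be told apart from that of the hairpin. QGP-1 cells were grown in RPMI 1640 and BON-1 cells in DMEM/F-12, and the deposited tables are separate for each line, so that line, medium and sequencing set cannot be told apart. The study calls the replicates biologic triplicates of cells cultured in triplicate. Whether they come from separate transductions or passages is not stated, so the p-values measure the spread between these libraries only.

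HES and HEY proteins are basic helix-loop-helix (bHLH) repressors, and several of them, such as HES1 and HEY1, are textbook targets of NOTCH signaling. The cleaved NOTCH receptor enters the nucleus, joins the DNA-binding protein RBPJ and a Mastermind (MAML) coactivator, and turns on HES1, HEY1 and their relatives, which in turn repress genes such as NEUROG3 together with co-repressors of the TLE family. ID proteins have the helix-loop-helix but lack the basic region that contacts DNA, and they tie up the E proteins TCF3, TCF4 and TCF12 that proneural factors need as partners. ID genes are classical targets of BMP signaling through SMAD1, SMAD5 and SMAD9. In the developing pancreas, NOTCH and HES1 hold back the endocrine program, which makes these genes of interest in tumor cells of endocrine type.

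The promoters show one difference between the families that bears on their textbook regulators. RefSeq promoter windows (GRCh38.p14, 250 bases before to 50 bases after the start) were found for 9 members. HEY1 had no entry. The RBPJ core TGGGAA, searched on both strands, was in the windows of HES1, HES4, HEY2 and HEYL and in none of those of HES6, ID1, ID2, ID3 and ID4. Of all 35116 windows, 24.0% hold at least 1 such match and 3.80% hold 2 or more, as HES1, HEY2 and HEYL do. The 150 bases upstream of the start are printed 5′ to 3′ for 3 of the genes with a match, with TGGGAA in capitals.
HES1 (chr3:194135998-194136147, plus strand): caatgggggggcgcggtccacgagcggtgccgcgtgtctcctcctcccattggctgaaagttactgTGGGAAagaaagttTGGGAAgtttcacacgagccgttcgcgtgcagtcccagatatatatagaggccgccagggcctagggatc
HES4 (chr1:1000098-1000247, minus strand): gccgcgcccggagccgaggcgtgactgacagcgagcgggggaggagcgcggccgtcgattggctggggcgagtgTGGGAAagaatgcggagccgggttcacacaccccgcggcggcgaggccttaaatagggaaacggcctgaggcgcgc
HEYL (chr1:39639644-39639793, minus strand): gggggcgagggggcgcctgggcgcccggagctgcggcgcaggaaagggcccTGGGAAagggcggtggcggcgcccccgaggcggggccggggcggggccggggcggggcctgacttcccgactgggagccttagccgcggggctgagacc
In HES1 the matches start at −84 and −70, counted from the transcription start, both on the coding strand. HES4 has 1 at −76. Of the matches in HEYL, that at −99 is in the stretch shown and that at −178 lies further upstream. HES1, which is known to repress its own promoter, also holds 4 matches to the N box CACNAG (present in 38.0% of windows) and 4 to the class C site CACGNG (30.5%), of which those at −132 and −58 are the same bases. Among the other members only ID1 holds an N box, at −140, and none of the 9 windows other than that of HES1 holds a class C site.

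The ID genes and HES6 are shown next, since they carry the differences between the lines described later. The CCAAT box (CCAAT, or ATTGG when read from the other strand) and the TATA box (TATAA, or TTATA from the other strand) are in capitals. Both motifs were added to the search after the sequences had been read.
ID1 (chr20:31605139-31605288, plus strand): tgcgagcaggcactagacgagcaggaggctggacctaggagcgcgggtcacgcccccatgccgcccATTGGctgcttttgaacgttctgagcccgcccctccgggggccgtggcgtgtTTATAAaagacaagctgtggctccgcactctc
ID2 (chr2:8681906-8682055, plus strand): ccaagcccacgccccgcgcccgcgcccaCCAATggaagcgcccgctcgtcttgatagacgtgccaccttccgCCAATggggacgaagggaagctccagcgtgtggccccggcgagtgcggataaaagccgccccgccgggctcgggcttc
ID3 (chr1:23559502-23559651, minus strand): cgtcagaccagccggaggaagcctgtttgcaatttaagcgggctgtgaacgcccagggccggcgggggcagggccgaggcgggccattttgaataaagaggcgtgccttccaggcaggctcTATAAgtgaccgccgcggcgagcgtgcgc
ID4 (chr6:19837220-19837369, plus strand): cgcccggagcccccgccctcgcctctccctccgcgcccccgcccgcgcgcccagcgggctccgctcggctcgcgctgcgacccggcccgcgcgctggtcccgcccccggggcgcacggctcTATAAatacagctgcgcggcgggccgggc
HES6 (chr2:238240039-238240188, minus strand): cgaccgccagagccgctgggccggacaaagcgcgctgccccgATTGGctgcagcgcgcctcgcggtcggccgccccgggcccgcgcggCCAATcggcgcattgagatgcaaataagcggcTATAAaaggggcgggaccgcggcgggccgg
TATAA lay at −31 in ID1, −29 in ID3, −29 in ID4 and −30 in HES6, and 20.4% of all windows hold it somewhere. ID2 had no TATAA and 3 CCAAT boxes, which 34.6% of windows hold at least once. The SMAD sites searched were the GC-rich GGCGCC (19.2% of windows) and the palindrome GTCTAGAC (0.202%). Neither was in a window of HES1, HES4, HES6 or an ID gene, while HEYL held 3 and HEY2 held 1 of the GC-rich form. The E box CANNTG, found in 68.7% of windows, was in those of ID2, ID4 and HES6. A match is a match of letters and not a binding site, and the absence of one says nothing about sequence outside the window.

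**Figure D1:**
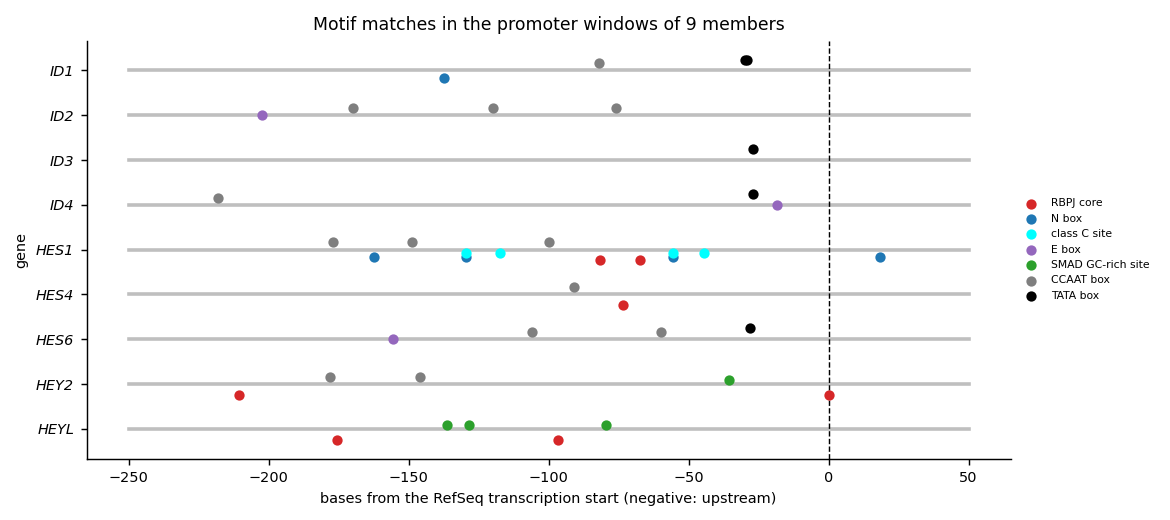
Motif matches in the RefSeq promoter windows of 9 members, with 1 line a gene, the distance from the transcription start in bases on the x axis and the motif by color. RBPJ core matches lie on the lines of HES1, HES4, HEY2 and HEYL, and TATA boxes lie just upstream of the start of ID1, ID3, ID4 and HES6.

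Total counts ranged from 38224144 to 50525926 per QGP-1 library and from 15981954 to 28484324 per BON-1 library. MUC1, the target of the hairpin, was at 5.79 to 7.37 CPM with vehicle and 0.722 to 1.07 with DOX in QGP-1 cells, and at 15.0 to 20.2 against 1.42 to 3.93 in BON-1 cells. MUC1 matched the label of each of the 12 libraries. CPM values are counts scaled to library size, on 1 TMM scale over the 12 libraries. Neuroendocrine identity was checked with 8 markers, whose summed level was 4410 to 5128 CPM with vehicle and 5185 to 5864 with DOX in QGP-1 cells, and 10885 to 14204 and 8668 to 9063 in BON-1 cells, where NCAM1 was near 0 (0.0588 CPM with vehicle). The sum rests largely on CHGA, which averaged 7875 CPM with vehicle and 2870 with DOX in BON-1 cells, against 151 and 167 in QGP-1 cells. Of the 8 markers, 3 were higher and 4 lower in BON-1 cells under vehicle (edgeR adjusted p below 0.05). Over all genes tested, 37.5% were higher and 37.5% lower. In bulk RNA, fewer cells of a type and less RNA per cell cannot be told apart.

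Levels of different genes were set side by side per length, as the authors' TPM rescaled to a common total without RN7SK, RN7SL1 and RN7SL2, which took between 50.9% and 80.3% of the deposited TPM. ID2 was the most abundant member in both lines, with 1672 ± 86.1 rescaled TPM (SD, n = 3) in QGP-1 and 1208 ± 21.0 in BON-1 cells under vehicle. In QGP-1 cells the order below it was ID3 (86.9 ± 9.71), HES1 (61.7 ± 5.48), ID1 (39.7 ± 3.19), ID4 (27.4 ± 1.75), HES4 (14.2 ± 1.26), HES6 (6.25 ± 1.03), HEY1 (3.62 ± 0.434), HEYL (1.69 ± 0.108) and HEY2 (0.660 ± 0.0150). No neighbors in that order overlapped in their libraries. In BON-1 cells ID1 came next after ID2, with 402 ± 25.9 rescaled TPM, then ID3 (252 ± 5.86), HES1 (114 ± 11.6), HES6 (20.2 ± 3.57), HES4 (16.3 ± 0.998), HEY2 (9.83 ± 1.61), ID4 (8.35 ± 0.838), HEY1 (3.47 ± 0.482) and HEYL (0.828 ± 0.0668). There the libraries of HES6 and HES4 overlapped, and so did those of HEY2 and ID4. Both lines thus held 1 dominant ID transcript, HES1 as the leading HES gene and HEY transcripts below it. Rescaled TPM were used for order within a group only, because this scale moved the median of all genes between vehicle and DOX by 0.29 (log2) in QGP-1 cells. In GENCODE 44, a long noncoding RNA gene on the other strand overlaps 5 members (HES6, HEY2, HEYL, ID2 and ID4), and since the use of strand in counting is not given in the sources used here, reads of such pairs cannot be told apart.

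**Figure D2:**
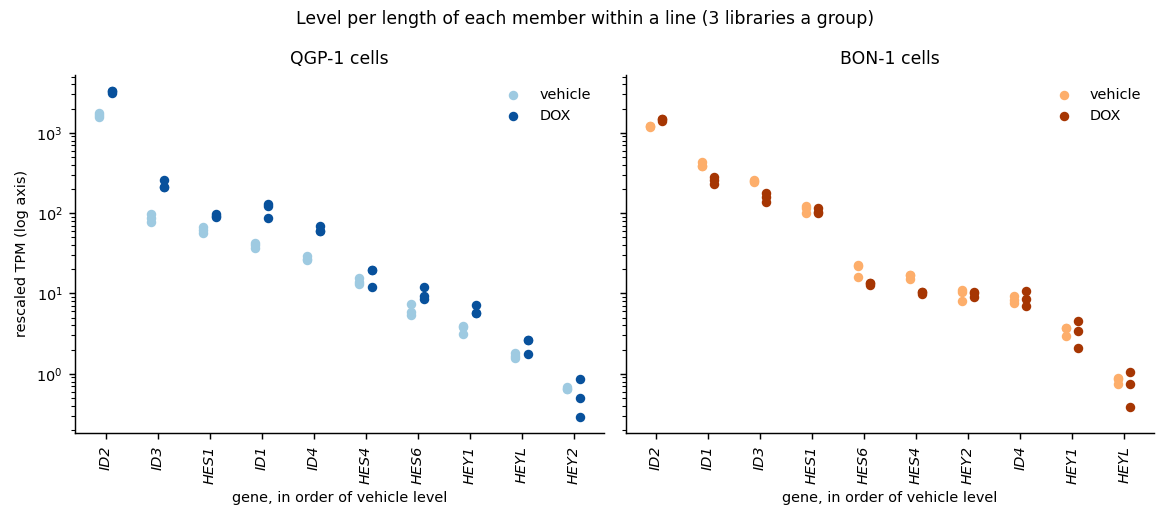
Rescaled TPM (log axis) of each member in QGP-1 (left) and BON-1 cells (right), 1 point a library, 3 libraries a group, with genes in the order of their mean under vehicle. ID2 stands highest in both lines, ID1 ranks after ID3 and HES1 in QGP-1 but ahead of them in BON-1 cells. The last genes are HEYL and HEY2 in QGP-1 and HEY1 and HEYL in BON-1 cells.

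Several of these repressors differed in level between the lines before DOX, as did a large share of all genes. Under vehicle, 5 of the 10 members were higher in BON-1 than in QGP-1 cells (HES1, HES6, HEY2, ID1 and ID3) and 3 were lower (HEYL, ID2 and ID4), by edgeR's quasi-likelihood test with Benjamini-Hochberg adjustment at an adjusted p below 0.05. Over all 16598 genes tested the shares were 37.5% higher and 37.5% lower. HEY2, which is best known from heart and vessels, was at 0.888, 0.949 and 0.969 CPM in QGP-1 and at 9.09, 11.9 and 11.5 CPM in BON-1 cells, 11.5-fold higher (log2 difference 3.52 ± 0.24 SE, adjusted p = 2.26e-12). ID1 was at 23.1, 20.1 and 23.3 CPM in QGP-1 and at 194, 162 and 171 CPM in BON-1 cells, 7.92-fold higher (2.98 ± 0.12, adjusted p = 3.08e-17). These were the widest gaps among the members, and neither pair of groups overlapped.

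ID4 went the other way, with 60.5, 54.7 and 60.0 CPM in QGP-1 against 15.8, 12.3 and 13.6 CPM in BON-1 cells, 4.19-fold lower in the latter (log2 difference −2.07 ± 0.11, adjusted p = 1.36e-14). ID2 was 1.77-fold lower in BON-1 cells and HEYL 2.60-fold lower, whereas HES6, a family member that counteracts HES1 and marks neuronal and endocrine precursors, was 2.55-fold higher. ID3 was 2.27-fold and HES1 1.45-fold higher in BON-1 cells. HES4 and HEY1 did not pass the test, with log2 differences of −0.15 (95% interval −0.52 to 0.22) and −0.41 (−0.85 to 0.03). The 8 calls were kept when any library was left out.

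All 4 ID genes rose with DOX in QGP-1 cells. ID1 was at 23.1, 20.1 and 23.3 CPM with vehicle and 40.7, 56.3 and 54.4 with DOX, a rise of 2.27-fold (log2 fold change 1.19 ± 0.12 SE, n = 3 in each group, edgeR adjusted p = 7.38e-06). ID3 was at 52.7, 48.5 and 45.4 CPM with vehicle and 98.8, 111 and 94.5 with DOX, a rise of 2.08-fold (1.06 ± 0.086, adjusted p = 1.11e-06). The lowest DOX library lay above the highest vehicle library for both genes. ID4 rose from 60.5, 54.7 and 60.0 to 106, 116 and 102 CPM (1.85-fold, log2 0.89 ± 0.078, adjusted p = 2.18e-06). ID2, already the most abundant, rose from 1083, 999 and 1119 to 1732, 1647 and 1592 CPM (1.55-fold, log2 0.64 ± 0.067, adjusted p = 1.21e-05), again with no overlap between groups. The 4 calls were kept with any 1 of the 6 libraries left out and in the 9 other fits tried, which changed the tool, the normalization, the filter, the unit or the samples in the fit.

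The HES and HEY genes of QGP-1 cells moved less. HES1 was at 45.5, 42.1 and 41.1 CPM with vehicle and 55.5, 49.0 and 49.4 with DOX, 1.20-fold higher (log2 0.26 ± 0.084, edgeR adjusted p = 0.0263), without overlap between the groups. HEY1 was at 5.06, 4.20 and 5.53 CPM with vehicle and 7.96, 6.03 and 6.24 with DOX, 1.37-fold higher (0.45 ± 0.17, adjusted p = 0.0498). These calls were less steady than those of the ID genes. That of HES1 was lost without vehicle replicate 2 (adjusted p = 0.0947), vehicle replicate 3 (0.0698) or DOX replicate 1 (0.0726), and that of HEY1 was kept only when vehicle replicate 3 was the library left out.

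HES4, HES6, HEY2 and HEYL did not pass the test in QGP-1 cells. Their log2 fold changes were −0.06 ± 0.18, 0.35 ± 0.19, −0.59 ± 0.45 and 0.14 ± 0.19. HEY2 was the lowest of the 10 there, with 0.340 to 0.977 CPM with DOX, so that counting error limits its value. DOX replicate 1 stood apart from the other DOX libraries for several members, with the lowest HES4 (4.37 CPM against 6.84 and 6.91) and ID1 and the highest HES6 (6.84 against 4.94 and 4.67) and HEY1. Of the 10 members, 6 rose and 0 fell in QGP-1 cells, where 17.3% of the 15089 genes tested rose and 17.7% fell. Their median log2 fold change was 0.40, beside −0.01 for all genes tested.

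**Figure D3:**
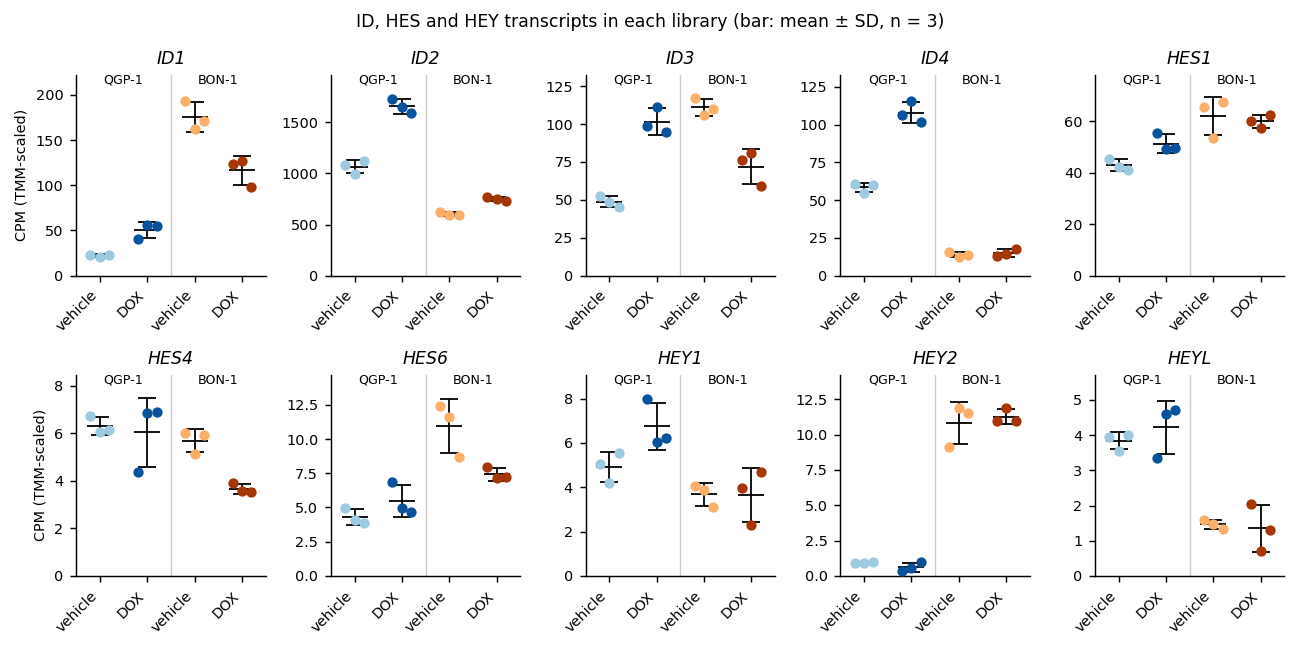
TMM-scaled CPM of the 10 members in each of the 12 libraries, with 1 panel a gene, axes from 0, points for libraries and bars for the mean and SD of 3. In QGP-1 cells (blue) the DOX libraries of ID1 to ID4 lie above the vehicle libraries, while in BON-1 cells (orange) those of ID1 and ID3 lie below and that of ID2 above. HEY2 is high in BON-1 and ID4 in QGP-1 cells.

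In BON-1 cells the same treatment was followed by lower ID1 and ID3. ID1 was at 194, 162 and 171 CPM with vehicle and 124, 127 and 98.4 with DOX, 1.52-fold lower (log2 −0.60 ± 0.091, edgeR adjusted p = 6.78e-06). ID3 was at 117, 106 and 110 CPM with vehicle and 76.0, 80.8 and 58.9 with DOX, 1.55-fold lower (−0.63 ± 0.096, adjusted p = 6.83e-06). The highest DOX library lay below the lowest vehicle library for both. ID2 rose from 620, 594 and 590 to 766, 752 and 731 CPM (1.24-fold, log2 0.31 ± 0.077, adjusted p = 0.00228), a direction that turned on the deposited TPM scale (−0.06), where the median of all genes moved by −0.31. ID4 was at 15.8, 12.3 and 13.6 CPM with vehicle and 12.7, 14.6 and 17.5 with DOX, overlapping groups with a log2 fold change of 0.09 (95% interval −0.19 to 0.38). The ID genes of BON-1 cells therefore split, with ID1 and ID3 lower, ID2 higher except on the deposited TPM and ID4 not passing the test.

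HES4 and HES6 fell as well in BON-1 cells. HES4 was at 5.99, 5.13 and 5.93 CPM with vehicle and 3.90, 3.56 and 3.53 with DOX, 1.56-fold lower (log2 −0.64 ± 0.22, edgeR adjusted p = 0.0207). HES6 was at 12.4, 11.6 and 8.70 CPM with vehicle and 7.99, 7.13 and 7.21 with DOX, 1.48-fold lower (−0.57 ± 0.17, adjusted p = 0.00999). Groups did not overlap for either gene, but the calls depended on single libraries. Without vehicle replicate 1 both were lost (adjusted p = 0.0632 for HES4 and 0.0628 for HES6), and without vehicle replicate 3 that of HES4 was lost (0.0597).

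HES1, the main NOTCH effector, was at 65.4, 53.5 and 67.4 CPM with vehicle and 59.9, 57.5 and 62.4 with DOX in BON-1 cells, overlapping groups with a log2 fold change of −0.06 (95% interval −0.24 to 0.12). HEY1, HEY2 and HEYL had log2 fold changes of −0.03 ± 0.27, 0.05 ± 0.16 and −0.14 ± 0.42 and did not pass the test. HEY2 was at 11.0, 11.9 and 11.0 CPM with DOX in BON-1 cells and overlapped the vehicle group. In all, 1 member rose and 4 fell in BON-1 cells, where 17.0% of the 14625 genes tested rose and 18.3% fell. The median log2 fold change of the members was −0.10, beside −0.01 for all genes.

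The responses of the lines were compared as the interaction of line and treatment in 1 edgeR fit of the 12 libraries. It was negative, that is lower in BON-1 than in QGP-1 cells, for 5 of the 10 members (ID1, ID2, ID3, ID4 and HES6) and positive for 0, where 7.92% of the 16598 genes were called negative and 8.80% positive. The log2 difference was −1.78 ± 0.16 for ID1 (adjusted p = 2.73e-08) and −1.68 ± 0.14 for ID3 (1.03e-08), both of which rose in QGP-1 and fell in BON-1 cells. For ID4 it was −0.78 ± 0.16 (edgeR adjusted p = 0.00101), for HES6 −0.92 ± 0.26 (0.0169) and for ID2 −0.32 ± 0.10 (0.0353). ID2 rose in both lines on the count and rescaled TPM scales, but on the deposited TPM only in QGP-1 cells. Its difference was lost when QGP-1 vehicle replicate 1 (edgeR adjusted p = 0.0562), vehicle replicate 2 (0.104) or DOX replicate 2 (0.0627) was left out.

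HES1, HES4 and HEY1 had negative differences of −0.31 (95% interval −0.57 to −0.05), −0.57 (−1.11 to −0.03) and −0.48 (−1.11 to 0.15) that did not pass adjustment over all genes (edgeR adjusted p = 0.110, 0.166 and 0.337). HEY2 was the only member with a positive difference, 0.66 ± 0.36 (adjusted p = 0.220), which turned to −0.26 on the deposited TPM scale. Leaving out single libraries brought 3 of these past the threshold, HES1 without BON-1 vehicle replicate 2 (−0.43, adjusted p = 0.0227), HES4 without QGP-1 DOX replicate 1 (−0.82, 0.0243) and HEY2 without QGP-1 DOX replicate 3 (1.16, 0.0263).

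The opposite changes narrowed or turned some of the gaps between the lines. The mean ID1 level in BON-1 was 7.91 times that in QGP-1 cells with vehicle and 2.31 times with DOX. For ID3 the ratio went from 2.27 with vehicle to 0.708 with DOX, so that QGP-1 cells with DOX (102 ± 8.83 CPM) held more than BON-1 cells with DOX (71.9 ± 11.6 CPM). The gap in ID4 widened, from a BON-1 to QGP-1 ratio of 0.238 to one of 0.138, and for HES6 the ratio went from 2.54 to 1.36. These ratios restate the interaction on the scale of levels and were given no test of their own.

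**Figure D4:**
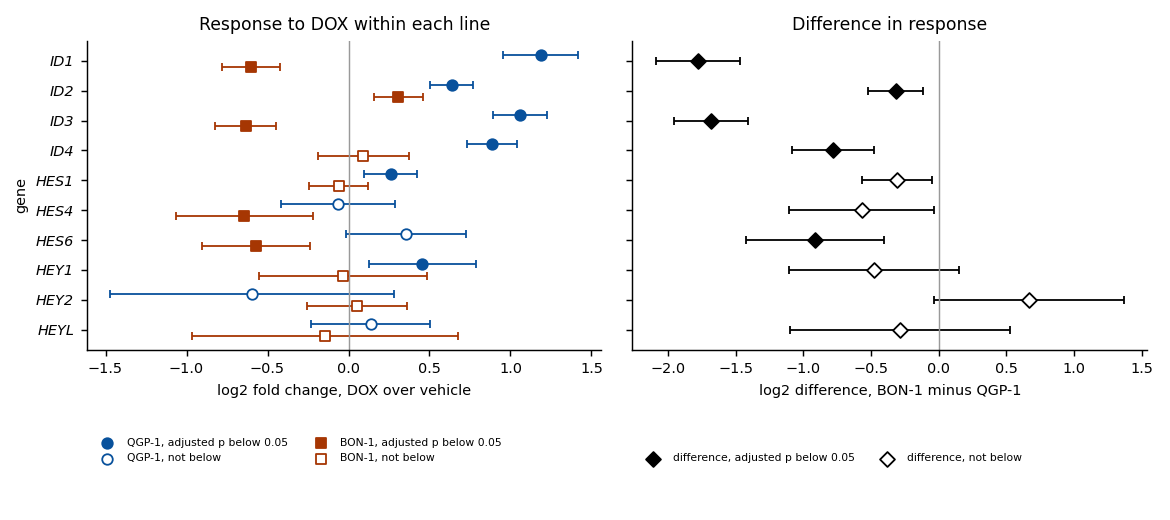
Log2 fold changes, DOX over vehicle, of the 10 members in QGP-1 and BON-1 cells (left) and the difference between the lines (right), with 95% intervals and filled symbols for an adjusted p below 0.05. ID1 and ID3 lie right of 0 in QGP-1 and left of it in BON-1 cells, and the differences of ID1 to ID4 and HES6 are filled and negative. ID2 in BON-1 cells is right of 0 here but turned on the deposited TPM scale.

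Genes whose pattern over the libraries was most like that of HES1, ID1 and ID3 were sought by Pearson correlation of log2 CPM, after each line had been centered on its mean, over 12 libraries and 10445 genes. ID1 and ID3 were near the top of each other's lists (r = 0.97). Next to ID1 came RGS4, a regulator of G protein signaling (r = 0.97), and RTL10 (0.96). RGS4 rose in QGP-1 cells (log2 1.66) and fell in BON-1 cells (−0.78). Closest to ID3 were KIF5C, a neuronal kinesin (0.97), with log2 fold changes of 0.95 in QGP-1 and −0.63 in BON-1 cells, and CELF3, a neuronal RNA-binding protein (0.97), with 0.52 and −0.47. For HES1 they were DESI2 (0.91), ZFYVE9 (0.90) and IMP4 (0.90), whose log2 fold changes in QGP-1 cells were 0.29, 0.19 and 0.28. That of ZFYVE9 did not pass the test (edgeR adjusted p = 0.0841). In BON-1 cells the values were 0.02, −0.16 and 0.03, and none passed. The points share their libraries and the 4 group means, and the correlations are a description.

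The NOTCH pathway was followed upstream of HES and HEY through a list of 31 genes. In QGP-1 cells 9 of 30 tested rose and 2 fell, with a median log2 fold change of 0.04. In BON-1 cells 5 of 30 rose and 7 fell with a median of −0.02, beside −0.01 for all genes in either line. The shares over all genes were 17.3% risen and 17.7% fallen in QGP-1 cells, and 17.0% and 18.3% in BON-1 cells. Among the ligands, DLL4 rose in QGP-1 cells from a mean of 13.4 to 39.6 CPM (log2 1.57 ± 0.12) but had 0.18 ± 0.096 in BON-1 cells, and the difference between lines passed the test (−1.38 ± 0.17, edgeR adjusted p = 3.63e-06). JAG1 rose in both, by log2 0.19 ± 0.067 in QGP-1 and 0.93 ± 0.077 in BON-1 cells, the call in QGP-1 cells being kept in 2 of 6 runs that left out a library. DLL3, an inhibitory ligand of neuroendocrine tumors, and JAG2, both named after their values were seen, fell in BON-1 cells by log2 −1.02 ± 0.13 and −0.82 ± 0.091.

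Among the receptors, NOTCH2 fell in BON-1 cells (log2 −0.54 ± 0.18, edgeR adjusted p = 0.0169, kept in 4 of 6 runs without a library) and had −0.23 ± 0.18 in QGP-1 cells, where it did not pass the test. NOTCH3 fell in QGP-1 cells (−0.63 ± 0.20, kept in 2 of 6 such runs), and NOTCH1 passed in neither line. MFNG, a glycosyltransferase that modifies the receptors, fell in BON-1 cells from 2.47 to 1.09 CPM. ADAM10, which sheds the receptor, rose in QGP-1 cells (0.47 ± 0.066), and APH1B, a subunit of the gamma-secretase that releases the active fragment, rose in both lines (0.26 ± 0.077, kept in 3 of 6 such runs, and 0.61 ± 0.093). RBPJ had −0.07 ± 0.062 in QGP-1 and rose by 0.25 ± 0.076 in BON-1 cells (kept in 3 of 6), and MAML3 rose by 0.34 ± 0.069 and 0.29 ± 0.078. The BON-1 rises of RBPJ and MAML3 turned on the deposited TPM scale. DTX1, a NOTCH target and regulator, fell in both, from 5.76 to 3.77 CPM in QGP-1 and from 1.27 to 0.178 CPM in BON-1 cells. The BON-1 levels are near 0, so that counting error limits that value. NRARP, also on the NOTCH list, passed in neither line (log2 0.12 ± 0.15 in QGP-1 and −0.21 ± 0.17 in BON-1 cells).

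The BMP pathway, which feeds the ID genes, was read in a list of 25 genes. In QGP-1 cells 8 of 21 tested rose and 2 fell (median 0.08), and in BON-1 cells 7 of 20 rose and 3 fell (median 0.07). Beside this, 17.3% of all genes rose and 17.7% fell in QGP-1 cells, and 17.0% and 18.3% in BON-1 cells. The median of all genes was −0.01 in each line. Some ligands rose in each line and others did not pass the test. BMP7, at 122 CPM in BON-1 cells with vehicle, had a log2 fold change of −0.04 ± 0.083 there. In QGP-1 cells BMP4 had 0.03 ± 0.21 and BMP6 had 0.03 ± 0.19. BMP2 rose from 0.470 to 1.07 CPM in QGP-1 cells (kept in 1 of 6 runs without a library), whereas BMP6 rose by log2 1.64 ± 0.22 and BMP4 by 0.53 ± 0.12 in BON-1 cells. The difference between lines passed the test for BMP6 (1.62 ± 0.31, edgeR adjusted p = 0.000801) and not for BMP4 (0.52 ± 0.23). BMP4 was at 2.97 CPM in QGP-1 and 91.6 CPM in BON-1 cells with vehicle. Of the receptors, BMPR1B fell in QGP-1 (−0.50 ± 0.13) and rose in BON-1 cells (0.28 ± 0.095, kept in 2 of 6 such runs and turned on the deposited TPM scale), and BMPR2, named after its values were seen, rose in QGP-1 cells (0.72 ± 0.067).

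SMAD1, which carries the BMP signal to ID promoters, rose in both lines, by log2 0.35 ± 0.085 and 0.52 ± 0.082. SMAD9, of the same class, was at a mean of 24.3 CPM with vehicle and 5.41 with DOX in BON-1 cells (log2 −2.17 ± 0.14), and had 0.27 ± 0.12 in QGP-1 cells, where it did not pass. The difference was −2.44 ± 0.19 (edgeR adjusted p = 2.79e-09). Secreted antagonists changed in both lines, FST upward (0.84 ± 0.068 and 1.06 ± 0.25) and CHRD downward (−0.62 ± 0.20, kept in 2 of 6 runs without a library, and −1.07 ± 0.12). Their levels differed widely between lines, FST with 478 CPM in QGP-1 and 2.36 CPM in BON-1 cells under vehicle and CHRD with 6.16 and 34.5 CPM. SMURF1, which degrades these SMADs, rose by 0.27 ± 0.082 and 0.26 ± 0.085, the latter turning on the deposited TPM scale.

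**Figure D5:**
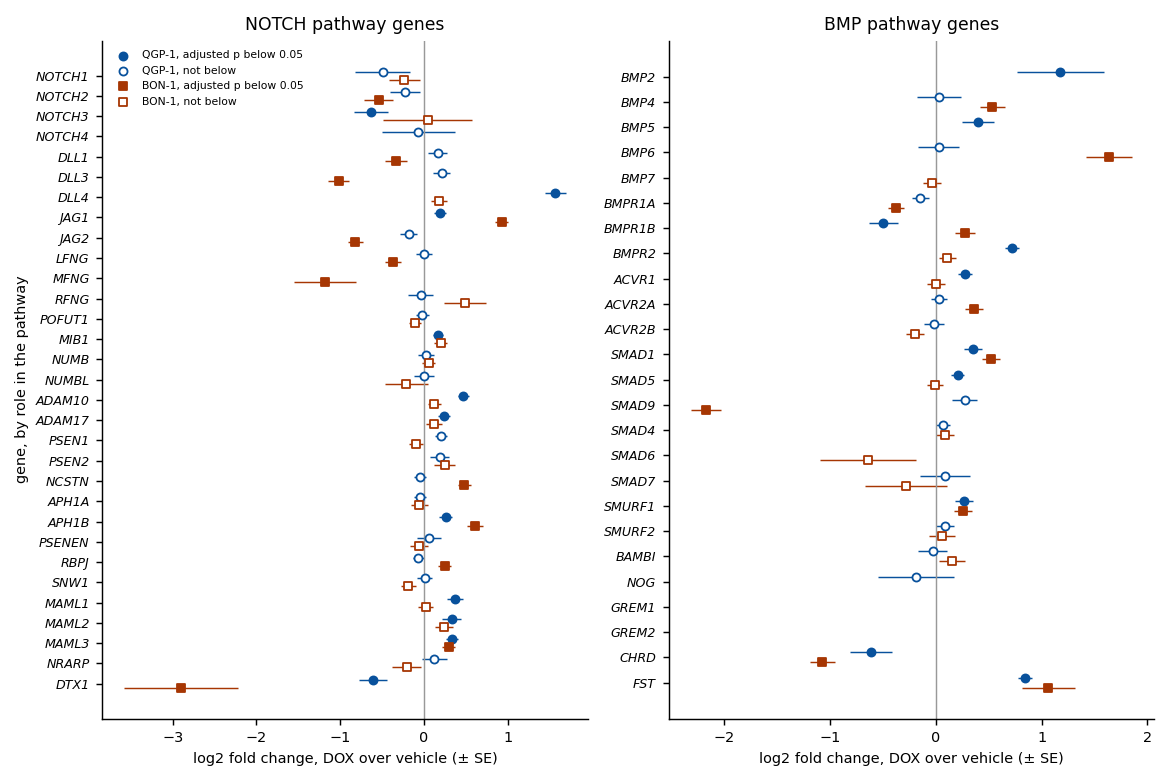
Log2 fold changes, DOX over vehicle (± SE), of the NOTCH (left) and BMP (right) list genes in QGP-1 (circles) and BON-1 cells (squares), filled where the adjusted p was below 0.05 and absent where a gene was not tested. DLL4 and BMP2 lie farthest to the right in QGP-1 cells, and SMAD9 and DTX1 are far to the left in BON-1 cells. The BON-1 values of RBPJ, MAML3, BMPR1B and SMURF1 turned on the deposited TPM scale.

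The partners of ID proteins were read next. TCF3, 1 of the E proteins that ID proteins bind, fell in BON-1 cells (log2 −0.42 ± 0.10) and had −0.05 ± 0.091 in QGP-1 cells. TCF12 was more abundant, with 226 CPM in QGP-1 and 194 CPM in BON-1 cells under vehicle. It did not pass the test in either line (−0.10 ± 0.064 in QGP-1 and −0.10 ± 0.074 in BON-1 cells). TCF4 averaged at most 0.102 CPM in a group. NEUROD1 was at 0 in QGP-1 cells and at means of 353 CPM with vehicle and 399 with DOX in BON-1 cells, and PTF1A was at 0 in QGP-1 cells and rose in BON-1 cells from 24.2 to 32.7 CPM. NHLH1 rose in QGP-1 cells from 0.287 to 0.940 CPM, a call kept in 2 of 6 runs without a library.

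Of the 11 co-repressor genes, 4 rose and 2 fell in QGP-1 cells, and 2 rose and 2 fell in BON-1 cells. Over all genes tested, 17.3% rose and 17.7% fell in QGP-1 cells, and 17.0% and 18.3% in BON-1 cells. The TLE genes, a family that includes partners of HES proteins, moved in opposite directions within the family. TLE2 fell in both lines (log2 −0.80 ± 0.11 and −2.30 ± 0.31) and TLE4 rose in both (0.60 ± 0.20, kept in 2 of 6 runs without a library, and 0.96 ± 0.12). TLE5 fell in BON-1 cells (−0.67 ± 0.080). SIRT1, a deacetylase that joins HES and HEY complexes, rose in both (0.54 ± 0.081 and 0.29 ± 0.087, the latter turning on the deposited TPM scale), and HDAC1 fell in QGP-1 cells (−0.32 ± 0.11, kept in 1 of 6 such runs and turning on that scale).

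Genes known to be repressed by HES, HEY or ID activity were read as well. In QGP-1 cells CDKN2B rose (log2 0.80 ± 0.097) and CDKN1C fell from 4.88 to 2.03 CPM (−1.26 ± 0.20). CDKN2A and CDKN2B were at 0 CPM in each BON-1 group. CDKN1A (0.24 ± 0.090, kept in 1 of 6 runs without a library) and CDKN1B (0.32 ± 0.079) rose in BON-1 cells, both turning on the deposited TPM scale. NEUROG3, the endocrine master gene repressed by HES1, did not pass the filter on low counts in either line. Of 7 other HES-related genes, 3 were tested in QGP-1 and 5 in BON-1 cells. The only 1 called was BHLHE40, a clock repressor, which fell in QGP-1 cells (−0.67 ± 0.14, turning on the deposited TPM scale). There 17.7% of all genes tested fell.

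Cell type markers were read beside the repressors. For all genes tested, the shares were 17.3% higher and 17.7% lower in QGP-1 cells, and 17.0% and 18.3% in BON-1 cells. Of the 8 neuroendocrine markers, 2 of 8 tested rose and 1 fell in QGP-1 cells (CHGB and SCG3 up, NCAM1 down), and 2 of 7 rose and 2 fell in BON-1 cells (SCG2 and SCG3 up, CHGA and SYP down). NCAM1 in QGP-1 and SCG3 in BON-1 cells turned on the deposited TPM scale, and SYP was kept in 3 of 6 runs without a library. CHGA, the main granule protein, fell in BON-1 cells from a mean of 7875 to 2870 CPM, and its difference between lines was −1.60 ± 0.15 (edgeR adjusted p = 4.82e-08). Of 13 markers of acinar, ductal, fibroblast, leukocyte and endothelial cells, 6 were tested in each line. Their summed level was 192 to 240 CPM with vehicle and 113 to 125 with DOX in QGP-1 cells, where PRSS1 and COL1A1 fell, and 333 to 391 and 480 to 572 CPM in BON-1 cells, where KRT19, CD68 and SOX9 rose and PRSS1 and CPA1 fell (CPA1 kept in 3 of 6 runs without a library). The leukocyte gene PTPRC, the endothelial CDH5 and the fibroblast PDGFRB averaged under 0.1 CPM in each group. The part of these markers in the changes of the repressors was not tested.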

How the data were processed

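Per the labels and the study's methods, the authors isolated total RNA with RNeasy, made TruSeq stranded mRNA libraries, aligned reads to GRCh38 with STAR and ran DESeq2. The STAR version, read counter, annotation and strand setting are not given in the sources used here. The authors deposited raw counts per gene without normalization and TPM, in a separate table for each line, with 0 columns unused. Replicates differed by more than sampling noise (chi-square per gene 5.92 to 29.7), so none was counted as a copy. Counting error is largest for HEY2 in QGP-1 (16 to 47 counts a library) and HEYL in BON-1 cells (14 to 46). It is also not small for HEY1 in BON-1 cells (45 to 117) or HES4 in BON-1 cells with DOX (63 to 70).

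The test was that of edgeR 4.0.16 (R 4.3.3) on the raw counts (TMM, filterByExpr, quasi-likelihood F test, Benjamini-Hochberg over all genes, adjusted p below 0.05), with 3 against 3 libraries within a line, and in 1 fit of 12 libraries for the interaction and the vehicle levels. SE is the size of the log2 fold change over the square root of F, and 95% intervals are 1.96 SE each way. The code was tested on simulated data. Alternatives were DESeq2 1.42.0, library size, other count filters, a replicate block, both lines together or the 6 vehicle libraries alone, limma 3.58.1 on log2(TPM + 1) or log2(TPM + 0.1) for genes with mean TPM of at least 1, a minimum absolute log2 fold change of 1 and leaving out each library.

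The members and gene lists were chosen with earlier results of these data known. The text names all 10 members, MUC1, a fixed set of genes (NOTCH1, NOTCH2, JAG1, RBPJ, SMAD1, BMP4, TCF3 and NEUROD1), the list genes called in both lines, the list genes with the 2 most positive and 2 most negative called changes of a line, and 3 pattern neighbors each of HES1, ID1 and ID3. DLL3, JAG2, NRARP, BMP7, BMPR2, TCF4, TCF12, CDKN2A, NEUROG3, SOX9 and the cell type markers at or near 0 fall outside this rule and were chosen after their values were seen. An item that the rule would name is not reported here. The sequences are from RefSeq GRCh38.p14.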

Additional observations from a re-analysis of the deposited data

Results flagged for a closer look

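The response to DOX differed between QGP-1 and BON-1 cells for 5 members, by the interaction of line and treatment in edgeR. The log2 difference, BON-1 minus QGP-1, was −1.78 for ID1, −1.68 for ID3, −0.92 for HES6, −0.78 for ID4 and −0.32 for ID2. ID1 and ID3 rose in QGP-1 and fell in BON-1 cells in all 3 libraries against 3, without overlap. That of ID2 was lost in 3 of the 12 runs that left out a library, those of the other 4 in 0. With 3 libraries a group, single libraries were not screened as outliers.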

How the results depend on the processing

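Of 672 alternative values computed for members, 22 lost a call and 15 gained one without a change of sign, and 14 changed sign. In 12 of the 14 neither value passed the threshold (HES4 in QGP-1 cells, HES1, HEY1, HEY2, HEYL and ID4 in BON-1 cells, and the difference for HEY2). The other 2, where one of the values passed, were HES4 in QGP-1 (0.52) and ID2 in BON-1 cells (−0.058), both on the deposited log2(TPM + 1). On this scale the median of all genes moved to 0.59 in QGP-1 cells, −0.31 in BON-1 cells and −0.88 for their difference, and 0 members rose and 0 fell in BON-1 cells, with 8 negative differences. Of all genes on this scale, 29 rose and 229 fell of 11954 in BON-1 cells. The difference was negative for 8060 of 11822 genes, so the count of 8 members goes with a shift of most genes. After rescaling without the 3 abundant RNAs the medians were 0.29, −0.05 and −0.33, 6520 genes rose and 668 fell in QGP-1 cells, 1410 rose and 2395 fell in BON-1 cells, and 8 members had a negative difference. So did 5568 of all 13916 genes tested on that scale. The cause of these shifts was not tested. Library size moved the median of the vehicle levels to 0.13. Requiring an absolute log2 fold change of 1 left 2 members higher in QGP-1 cells (ID1 and ID3), 0 higher and 0 lower in BON-1 cells and 2 negative differences. The share of all genes past that limit was not computed. Leaving out 1 library gave 2 to 4 members lower in BON-1 cells (2 without vehicle replicate 1) and 0 to 1 with a positive difference (1, HEY2, without QGP-1 DOX replicate 3). In these 2 runs, 2194 of all 14888 genes were lower in BON-1 cells and 1353 of 16722 had a positive difference.

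Same-numbered replicates did not pair (correlations of −0.068, 0.11 and 0.074 in QGP-1 and −0.044, −0.026 and 0.078 in BON-1 cells). With the replicate block the calls of HEY1 in QGP-1 cells (log2 0.45, adjusted p = 0.0501) and of the ID2 difference (−0.32, adjusted p = 0.0563) were lost and no other call of a member changed. HEY1 was also lost with at least 10 counts in every library (adjusted p = 0.0513) and with both lines in 1 fit (0.108). The vehicle levels were not recomputed on TPM, since the tables were normalized separately, and protein features were not analysed here. Low counts limit HEY2 in QGP-1 and HEYL in BON-1 cells most, and HEY1 and HES4 in BON-1 cells to a lesser degree.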
